A study of Mus musculus with 2 samples.

Results

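Matrix metalloproteinases, ADAMTS enzymes and their tissue inhibitors were described by cell type in dissociated mouse hearts. Genes were taken by symbol (Mmp with a number, Adamts, including the Adamts-like genes, and Timp1 to Timp4). Of 51 symbols that matched among 55357 listed genes, 40 had at least 20 unique molecular identifiers (UMIs, the count of distinct captured RNA molecules) over both libraries. They comprised 15 of 23 Mmp genes, 16 of 19 Adamts genes, 5 of 5 Adamtsl genes and 4 of 4 Timp genes. The 11 symbols below the minimum were Mmp1a, Mmp1b, Mmp7, Mmp8, Mmp10, Mmp20, Mmp21, Mmp25, Adamts13, Adamts16 and Adamts18.

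The data were 2 droplet libraries of C57BL/6 mouse heart. For TAC, transverse aortic constriction, a suture that narrows the aortic arch and overloads the left ventricle, male mice were operated on at 8 weeks of age and the hearts were taken 6 weeks later. Sham mice went through the operation without the constriction by the sample label, whereas the series text calls the comparison mice uninjured. The study's methods state that male mice were used, and the label of the Sham sample gives no age. Each library pooled cells of 3 to 5 hearts, so each condition had 1 library, hearts could not be told apart, and no test between conditions was possible. Every interval below covers counting error only, and every TAC to Sham ratio compares those libraries.

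The Sham library held 28146691 UMIs in 9935 barcodes and the TAC library 29108986 in 9932, and 32 barcode sequences occurred in both. After 1 barcode with few genes and the called doublets were left out of each, 9475 Sham cells and 9452 TAC cells were kept. Cell types were rebuilt from clusters and fixed marker genes. The large types, given as Sham and TAC cells, were cardiomyocytes (2361 and 2393), fibroblasts (2291 and 2127), endothelial cells (1904 and 2255), macrophages (1412 and 1347) and pericytes (1064 and 1043). Small clusters of lymphatic endothelial (85 and 110), smooth muscle (50 and 43), T (37 and 57), B (37 and 36), epicardial or mesothelial (20 and 26) and Schwann (12 and 15) cells were also named. No cluster was named for neutrophils, and 202 Sham cells stayed unnamed. Cardiomyocyte markers were present at a level of 80832 per 1000000 UMIs in Sham cardiomyocytes and 63002 in TAC cardiomyocytes.

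Matrix metalloproteinases are zinc enzymes that cut collagens and other matrix proteins, some secreted and some anchored in the cell membrane. ADAMTS enzymes are secreted relatives: one branch cuts the proteoglycans versican and aggrecan, another trims procollagens, and the ADAMTS-like proteins have no protease domain and bind the matrix. TIMPs block most metalloproteinases and some ADAMTS enzymes. In the heart this system sets the turnover of the interstitial matrix, which changes in pressure overload. RNA says nothing of the activation of these enzymes, most of which are made as inactive proforms.

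The 40 genes together held 48491 Sham and 46399 TAC UMIs. Of them, 30 had at least 200 UMIs over the kept cells, and these were ranked by level, the UMIs of a gene per 1000000 UMIs of a cell type. Among the 5 large types, fibroblasts held the highest level of 18 of the 30 genes in Sham, endothelial cells of 6, cardiomyocytes of 3, pericytes of 2 and macrophages of 1. The same counts were found in TAC, and 28 of the 30 genes had the same leading type in both libraries. The exceptions were Adamts3, which moved from fibroblasts to cardiomyocytes, and Adamtsl4, which moved from cardiomyocytes to fibroblasts. For Adamtsl4 the TAC fibroblast level was 1.11 times the cardiomyocyte level (0.962 to 1.28), so the order in TAC was within counting error. For Adamts3 the Sham fibroblast level was 106 with and 66.5 without a fibroblast cluster led by Nkain2, against 77.8 in cardiomyocytes, so its change of leading type rests on that cluster. The leading type is a matter of level and need not hold most of a gene's UMIs, since cardiomyocytes carry more RNA: they gave 48.7% of all kept Sham UMIs and 49.2% of TAC UMIs from 24.9% and 25.3% of the cells.

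**Figure D1:**
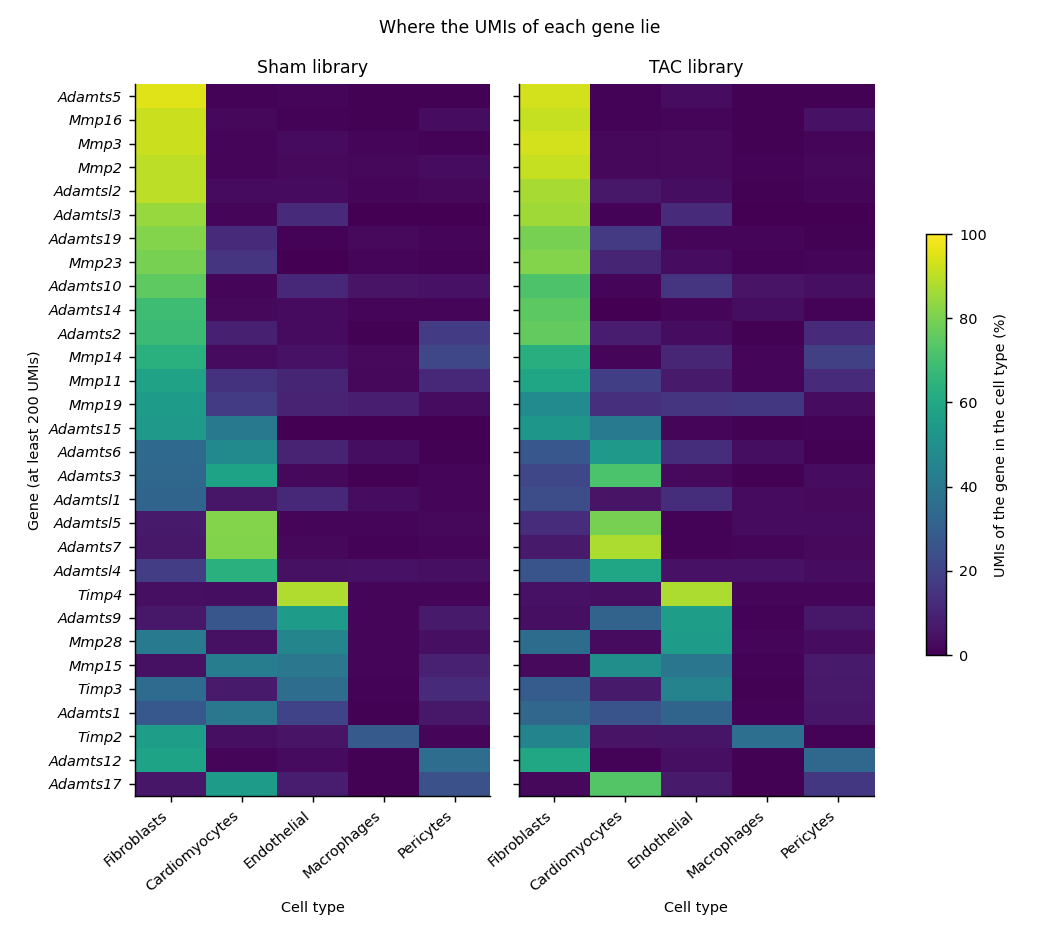
Percent of each gene's UMIs (colour, 0 to 100) found in each of the 5 large cell types (columns) in the Sham library (left) and the TAC library (right), for the 30 genes with at least 200 UMIs, ordered by leading type and share in Sham. Adamts5 (95.2% in Sham fibroblasts), Timp4 (87.9% in Sham endothelial cells) and Adamtsl5 (81.3% in Sham cardiomyocytes) were concentrated in 1 type, whereas Mmp15 and Timp3 were spread over several.

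Among the proteoglycan-cutting enzymes, Adamts5, the main aggrecanase of mouse cartilage and a versican-cutting enzyme in the heart, was the gene most confined to fibroblasts by share. Its level in fibroblasts was 1027 in Sham (95% interval 1000 to 1054) and 796 in TAC (772 to 821), and fibroblasts held 95.2% and 93.3% of its UMIs. The next level, in endothelial cells, was 44.1 in Sham and 47.9 in TAC. After each cell was thinned to 1000 UMIs, 50.8% of Sham fibroblasts and 41.3% of TAC fibroblasts had an Adamts5 UMI, against 0.516% and 0.461% of cardiomyocytes. Without thinning the shares were 64.1% and 58.7% of fibroblasts (median depth 2155 and 2268 UMIs) and 2.46% and 1.63% of cardiomyocytes (4504 and 4918 UMIs).

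Adamts9, which also cuts versican, had the highest level in endothelial cells, with 718 in Sham and 714 in TAC. Cardiomyocytes held it at 67.2 in Sham and 99.9 in TAC, a ratio of 1.49 (1.36 to 1.62), and pericytes at 125 and 141. The endothelial levels gave a TAC to Sham ratio of 0.995 (0.934 to 1.06). Adamts1, a versican-cutting enzyme known as an early response gene, was led by endothelial cells as well, at 61.9 in Sham and 92.1 in TAC, followed by fibroblasts at 38.0 and 58.8. Adamts1 and Adamts5 are neighbours on chromosome 16 (chr16:85793827-85803113 and chr16:85856173-85901828 of GRCm38 in GENCODE M21), yet their leading types differed and their fibroblast ratios lay on opposite sides of 1. Adamts15 was led by fibroblasts at 26.2 and 20.4. Adamts4, Adamts8 and Adamts20 had only 34, 9 and 57 kept UMIs in Sham and 52, 18 and 59 in TAC, and Adamts20 lay mostly in fibroblasts with 44 and 46 of them.

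The procollagen N-propeptidases trim the amino-terminal end of fibrillar procollagens. Adamts2 had a fibroblast level of 339 in Sham and 409 in TAC, and pericytes followed at 260 and 177. Adamts14 was low in fibroblasts, at 16.4 and 15.4, and was higher per UMI in the few smooth muscle cells, at 189 in Sham (121 to 280, from 24 UMIs) and 123 in TAC (63.5 to 215, from 12 UMIs). Adamts3, known for processing the lymphatic growth factor Vegfc, was shared between fibroblasts (106 in Sham and 57.8 in TAC) and cardiomyocytes (77.8 and 77.6). The cardiomyocyte ratio of TAC to Sham was 0.997 (0.913 to 1.09), while the intervals of the fibroblast levels did not overlap.

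Of the other ADAMTS enzymes, Adamts10, a partner of fibrillin microfibrils, was led by fibroblasts at 580 in Sham and 510 in TAC and was also found in endothelial cells at 198 and 175. Adamts12 was higher in pericytes, at 462 and 437, than in fibroblasts, at 254 and 288. Adamts17 was likewise led by pericytes, at 54.5 and 49.4, although cardiomyocytes, with more RNA, held 54.7% and 73.1% of its UMIs. Adamts7 was a cardiomyocyte gene by level, at 62.2 and 49.8 against 11.8 and 10.2 in fibroblasts. Adamts6 differed less between types: its levels were 158 in fibroblasts, 105 in endothelial cells and 95.6 in cardiomyocytes of Sham, and 139, 106 and 109 in TAC, where pericytes had the lowest level of the 5 large types at 7.80. Adamts19 was found in fibroblasts at 34.6 and 51.7. Adamts7 overlaps Tbc1d2b on the other strand, and the counting did not state its use of strand, so reads of that pair may be mixed. The same limit holds for others that overlap a gene on the other strand, among them Adamts2, Adamts3, Adamts9, Adamts17, Adamtsl1, Mmp11, Mmp16, Mmp19 and Mmp28.

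The ADAMTS-like genes also differed in their leading types. Adamtsl5 was led by cardiomyocytes, with a level of 371 in Sham cardiomyocytes (360 to 382) and 201 in TAC (194 to 209), and these cells held 81.3% and 79.6% of its UMIs. After thinning, 30.8% of Sham and 18.0% of TAC cardiomyocytes had an Adamtsl5 UMI, against 2.48% and 0.982% of endothelial cells. Without thinning, the cardiomyocyte shares were 75.3% and 56.2%. Adamtsl2, whose protein binds fibrillin and the latent TGF-beta binding protein, and Adamtsl3 were led by fibroblasts, with 89.9% and 84.5% of their Sham UMIs there. Adamtsl1 was low in fibroblasts, at 37.4 and 36.4, and reached its highest levels in small clusters. It had a level of 886 in Sham lymphatic endothelial cells (755 to 1033) and 1334 in TAC (1196 to 1484), 1485 and 436 in epicardial or mesothelial cells, and 456 and 533 in smooth muscle cells. The lymphatic levels gave a TAC to Sham ratio of 1.51 (1.25 to 1.83), which was 1.49 without the top cell of each library. Without the clusters led by Nkain2, the fibroblast levels were 10.8 and 17.6, and the fibroblast ratio was 1.63 (1.12 to 2.40) in place of 0.974. Those clusters were made in each library alone, so their borders need not be the same. Lymphatic endothelial cells, under 2% of the cells, held 25.9% of the Adamtsl1 UMIs in Sham and 42.7% in TAC. The epicardial values rest on 59 and 27 UMIs in 20 and 26 cells.

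Of the metalloproteinases, the gelatinase Mmp2, which cuts denatured collagen and basement membranes, was a fibroblast gene with levels of 163 in Sham and 196 in TAC and 90.1% and 91.4% of its UMIs there. The other gelatinase, Mmp9, a product of neutrophils and macrophages in most tissues, had 14 kept UMIs in Sham and 19 in TAC, of which macrophages held 10 and 13. Mmp14, the membrane-anchored activator of pro-Mmp2, was at 52.5 in Sham fibroblasts and 51.8 in Sham pericytes, and at 49.7 and 40.1 in TAC, and these neighbours did not differ beyond counting error in either library. Mmp16, another membrane-type enzyme, was held by fibroblasts with 92.0% and 91.2% of its UMIs. Mmp15 was instead led by endothelial cells, at 58.1 and 55.6, and was found in cardiomyocytes at 11.8 and 17.3. Mmp17 and Mmp24 had 50 and 35 kept UMIs in Sham and 64 in TAC each.

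Mmp23, Mmp11 and Mmp19 were led by fibroblasts in both libraries, and Mmp28, a secreted enzyme known as epilysin, by endothelial cells at 77.5 in Sham and 87.8 in TAC. In GENCODE M21, 10 of the symbols lie in 1 cluster on chromosome 9, from Mmp13 (chr9:7272514-7283331 of GRCm38) to Mmp7 (chr9:7692090-7699585), and only Mmp3, Mmp12, Mmp13 and Mmp27 of these reached 20 UMIs. Their cell types differed within the cluster. Mmp3 had 179 of 195 kept Sham UMIs and 522 of 561 TAC UMIs in fibroblasts, and Mmp27 57 of 61 and 78 of 86. Mmp13, a collagenase, had 32 of 34 and 51 of 54 of its UMIs in macrophages, and Mmp12, the macrophage elastase, 16 of 17 and 15 of 15. The macrophage level of Mmp13 was 14.5 in Sham and 19.5 in TAC, a ratio of 1.35 (0.850 to 2.17). Its interval includes 1.

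The 4 TIMPs differed in where they were found. Timp4 was the gene most confined to endothelial cells, at 210 in Sham (192 to 229) and 205 in TAC (190 to 221), with 87.9% and 87.7% of its UMIs. After thinning, 16.2% and 16.5% of endothelial cells had a Timp4 UMI against 0.0430% and 0.0839% of cardiomyocytes, and 19.2% and 19.6% did so unthinned. Timp2, which inhibits metalloproteinases and also takes part in pro-Mmp2 activation by Mmp14, was led by macrophages at 153 and 191, with fibroblasts at 123 and 119. Timp3, which binds to the matrix and blocks ADAMTS enzymes as well, was led by endothelial cells among the large types at 374 and 321, and was higher in lymphatic endothelial cells at 793 (669 to 933) and 837 (729 to 957). Timp1, the inducible TIMP, was sparse, with 51 kept Sham UMIs and 139 TAC UMIs, of which fibroblasts held 30 and 93. Timp1, Timp3 and Timp4 overlap the synapsin genes Syn1, Syn3 and Syn2 on the other strand.

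**Figure D2:**
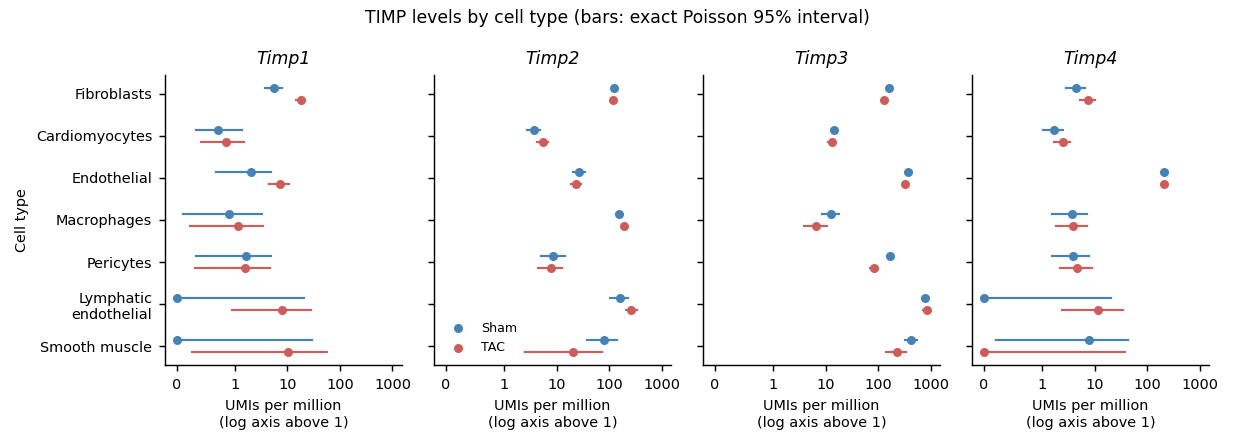
Levels of the 4 TIMP genes (UMIs per 1000000 UMIs of the cell type, log axis above 1) in 7 cell types of the Sham (blue) and TAC (red) libraries, with exact Poisson 95% intervals as bars. Timp4 stood near 210 in endothelial cells and below 12 in every other type shown, Timp3 was highest in lymphatic endothelial cells (793 and 837), and the Timp1 intervals of fibroblasts (5.53 and 17.9) did not overlap.

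RNA released by broken cells reaches all droplets, so low values outside the leading type were set beside the markers of that type. In Sham cardiomyocytes the fibroblast markers stood at a median of 1.13% of their fibroblast level, and Adamts5 at 0.470%, Adamts10 at 0.832% and Mmp2 at 0.873% of theirs. These cardiomyocyte values lay below that median and were not read as expression by cardiomyocytes. Whether they are released RNA or low expression was not tested. In Sham endothelial cells the cardiomyocyte markers stood at a median of 12.4% of their cardiomyocyte level with a range from 3.57% to 70.1%, and Adamtsl5 at 8.12%, within that range. Adamtsl5 in fibroblasts was at 20.9% of its cardiomyocyte level in Sham and 40.1% in TAC, against medians of 5.79% and 5.99% for the markers, though the markers ranged up to 32.9% and 28.4%. Adamts9 in cardiomyocytes was at 9.37% and 14.0% of its endothelial level where the endothelial markers were at 0.453% and 0.449%, with no marker above 1.03% and 1.28%.

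The TAC to Sham comparison asks how these genes differ between an overloaded and a control heart within a cell type. It used genes with at least 50 UMIs in the type over both libraries and called a gene higher or lower at a ratio of at least 1.5 either way. In fibroblasts 4 of 32 genes were higher in TAC (Timp1, Mmp3, Timp4 and Adamts1), where 10.5% of all 12298 genes were, and 2 were lower (Adamtsl2 and Adamts3), where 4.33% of all genes were. In cardiomyocytes 2 of 23 were higher (Adamts19 and Adamts17) against 12.8% of 13230 genes, and 2 lower (Adamtsl5 and Adamts5) against 6.74%. In endothelial cells 1 of 21 was higher (Mmp19) against 8.66% of 10085 genes, and 2 were lower (Adamtsl5 and Adamtsl4) against 5.85%. In macrophages 1 of 9 was higher (Mmp19) against 9.16% of 9537 genes, and 1 lower (Adamtsl4) against 8.76%. In pericytes 1 of 16 was higher (Adamts3) against 7.41% of 8379 genes, and 2 were lower (Timp3 and Adamtsl4) against 6.55%. On so few genes these counts were not read as particular to the family. The median log2 ratio was 0.04 in fibroblasts, -0.17 in cardiomyocytes, -0.02 in endothelial cells, -0.34 in macrophages and -0.26 in pericytes, where over all genes it lay between -0.00 and 0.03.

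**Figure D3:**
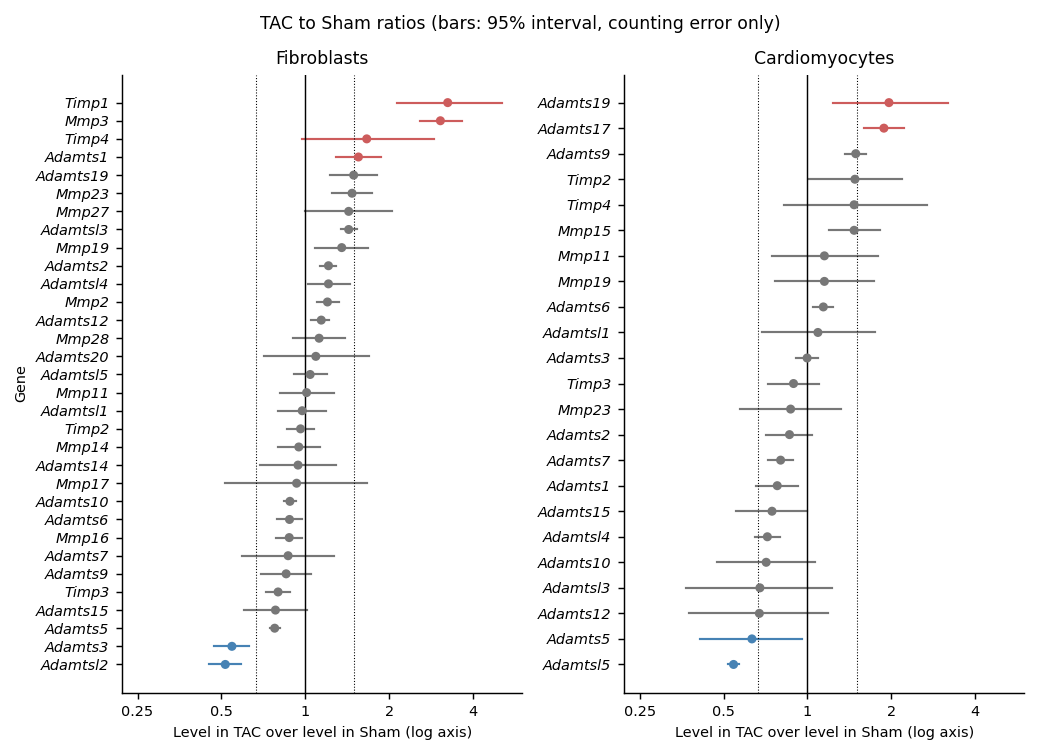
Ratio of the TAC level to the Sham level (log axis) with its 95% interval for the 32 genes tested in fibroblasts (left) and the 23 in cardiomyocytes (right). Dotted lines mark 1.5 times either way, red points are higher and blue points lower by at least that: Timp1 (3.24) and Mmp3 (3.05) lead in fibroblasts and Adamtsl5 (0.543) is the lowest in cardiomyocytes.

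In fibroblasts Timp1 had a level of 5.53 in Sham and 17.9 in TAC, a ratio of 3.24 (2.13 to 5.07), and the intervals of both levels lay apart. Mmp3, stromelysin, which cuts proteoglycans and activates other metalloproteinases, had 33.0 in Sham (28.3 to 38.2) and 101 in TAC (92.2 to 110), a ratio of 3.05 (2.57 to 3.64). It was 3.06 without the cell with the most Mmp3 UMIs in each library. The share of fibroblasts with an Mmp3 UMI was 1.68% in Sham and 3.69% in TAC after thinning, and 3.19% and 5.74% before. In thinned Sham cardiomyocytes 0 of 2325 cells had an Mmp3 UMI, which allows a share of up to 0.129% by the limit of 3 counts, and in TAC the share was 0.0839%. Adamts1 had 38.0 and 58.8, a ratio of 1.55 (1.29 to 1.86) that was 1.48 without the clusters led by Nkain2. Timp4 had 24 UMIs in Sham fibroblasts and 38 in TAC, and the interval of its ratio of 1.66 (0.969 to 2.89) includes 1. Its fibroblast level was 2.10% of its endothelial level in Sham and 3.58% in TAC. The endothelial markers ranged there from 0.683% to 3.32% and from 0.596% to 9.01%, so Timp4 lay within both ranges. Whether it was released RNA or low expression was not tested. Adamtsl2 was at 126 in Sham (117 to 136) and 65.0 in TAC (58.2 to 72.3), a ratio of 0.516 (0.452 to 0.589), and Adamts3 had a ratio of 0.545 (0.472 to 0.628).

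The immediate-early list, genes that respond within minutes to stress and to tissue handling, was higher in the TAC fibroblasts beside these genes. All 8 of its members with enough UMIs had a ratio above 1, where 52.9% of all genes did, and 4 were past 1.5, where 10.5% were. The median log2 ratio of the 8 was 0.64, and the summed level of the list was 222 in Sham and 372 in TAC. Its largest ratios were those of Nr4a1 (2.79), Fos (2.51) and Junb (2.16). In the other large types the median log2 ratio of the list was 0.25 in cardiomyocytes, -0.14 in endothelial cells, 0.06 in macrophages and -0.03 in pericytes. The ribosomal protein genes had a median log2 ratio of 0.51 in fibroblasts. The fibroblast markers summed to 4470 in Sham and 6163 in TAC. All 9 were above a ratio of 1 and 4 past 1.5, against 52.9% and 10.5% of all genes. The 4 were Gsn at 1.69, Lum at 1.67, Dpt at 1.61 and Tcf21 at 1.53. The part of any of these in the values of Timp1, Mmp3 and Adamts1 was not tested.

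The promoters of the 5 genes that passed in fibroblasts with an interval clear of 1 are shown. Each is the run of 250 bases before the start of the gene on its own strand, 5′ to 3′, from RefSeq on GRCm38.p6. They lie at chrX:20869916-20870165 (plus strand, Timp1), chr9:7445572-7445821 (plus, Mmp3), chr16:85803114-85803363 (minus, Adamts1), chr2:27079129-27079378 (plus, Adamtsl2) and chr5:89883335-89883584 (minus, Adamts3). Capitals mark TGAGTCA, the binding sequence of the Fos and Jun factors (AP-1), and TATAAA, known as the TATA box, each searched on both strands.
Timp1: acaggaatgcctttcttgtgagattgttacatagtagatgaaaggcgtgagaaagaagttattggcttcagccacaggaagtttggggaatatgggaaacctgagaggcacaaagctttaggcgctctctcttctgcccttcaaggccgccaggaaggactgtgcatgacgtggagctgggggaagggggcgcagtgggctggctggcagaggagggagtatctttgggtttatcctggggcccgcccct
Mmp3: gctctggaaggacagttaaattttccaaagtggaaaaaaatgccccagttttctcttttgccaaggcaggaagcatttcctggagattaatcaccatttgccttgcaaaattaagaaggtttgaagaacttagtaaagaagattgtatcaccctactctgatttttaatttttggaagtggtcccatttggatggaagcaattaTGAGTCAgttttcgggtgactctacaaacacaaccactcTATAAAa
Adamts1: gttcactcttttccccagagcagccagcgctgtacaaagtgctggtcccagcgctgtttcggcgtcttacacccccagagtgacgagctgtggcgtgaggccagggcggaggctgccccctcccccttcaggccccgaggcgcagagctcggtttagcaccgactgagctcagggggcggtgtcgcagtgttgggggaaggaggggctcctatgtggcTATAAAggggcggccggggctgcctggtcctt
Adamtsl2: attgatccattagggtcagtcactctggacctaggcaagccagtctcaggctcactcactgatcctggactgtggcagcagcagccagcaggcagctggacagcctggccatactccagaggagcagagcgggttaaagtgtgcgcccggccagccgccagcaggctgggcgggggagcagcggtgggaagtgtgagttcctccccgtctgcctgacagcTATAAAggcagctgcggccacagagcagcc
Adamts3: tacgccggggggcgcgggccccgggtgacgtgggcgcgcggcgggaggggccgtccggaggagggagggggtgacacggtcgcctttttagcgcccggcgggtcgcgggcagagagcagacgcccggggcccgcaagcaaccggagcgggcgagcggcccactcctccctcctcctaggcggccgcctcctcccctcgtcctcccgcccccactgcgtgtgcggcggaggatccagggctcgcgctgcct
TGAGTCA stood in the Mmp3 promoter, 46 bases before the start, and in none of the other 4 windows. It was in 4.46% of all 32851 promoters of the same length, and in those of Mmp3, Mmp12 and Mmp13 among the 26 genes of the set with a promoter in the table. TATAAA was in the promoters of Mmp3, Adamts1 and Adamtsl2, starting 7, 32 and 30 bases before the start. It was in 12.4% of all promoters and in those of 4 of the 26 genes of the set. The GC box GGGCGG was in every one of the 5 except Mmp3. It was in 32.7% of all promoters but in those of 18 of the 26 genes of the set. The GC content ran from 37.6% in Mmp3 to 78.0% in Adamts3. A match is only a match of letters and was not read as a bound site.

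Fibroblasts formed 3 clusters in Sham and 4 in TAC, built without the genes described here, and the levels differed between them. Clusters are named by leading genes. Mmp3 was at 12.5 in the Sham cluster led by C7 and Gfpt2, 38.9 in that led by Gfra1 and Rgs17, and 48.0 in that led by Nkain2 and Vit. In TAC it was at 132 in the cluster led by Rgs17 and Gpm6b (1453 cells) and 130 in that led by Sntg1 and Nkain2 (129 cells), but 23.6 in that led by Adgrd1 and Gfpt2 (514 cells). Mmp3 was thus lowest in both libraries in the clusters with Gfpt2 and Pi16 among their 4 leading genes, apart from the TAC cluster led by Postn and Ltbp2, where it had no UMI in 31 cells.

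Timp1 had a different distribution. The 31 cells led by Postn, Ltbp2 and Cilp, genes of activated matrix-making fibroblasts, had a level of 196 (123 to 296) from 22 UMIs in 9 cells. The Gfpt2 clusters were alike, at 13.7 in Sham and 13.3 in TAC, while the large Rgs17 clusters were at 0.836 from 2 UMIs in Sham and 15.3 from 52 UMIs in TAC. Without the Postn cluster, the TAC to Sham ratio of Timp1 in fibroblasts was 2.53 (1.63 to 4.02). The same Postn cluster had the highest levels of Adamts6, at 880 against 110 to 169 elsewhere in TAC, and of Adamts19, at 275 against 41.1 to 59.7.

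Adamtsl2 was lower in each of the 4 TAC clusters, at 50.1 to 97.8, than in each of the 3 Sham clusters, at 109 to 150. The intervals of the small TAC clusters, of 31 and 129 cells, overlapped those of Sham clusters. Adamts3 was not: it was at 225 in the Nkain2 cluster of Sham and 227 in that of TAC, and at 28.0 to 75.7 in the others. The Nkain2 clusters held 537 of 2291 Sham fibroblasts and 129 of 2127 TAC fibroblasts. Each library was clustered alone and these clusters were matched by a shared leading gene, so their borders need not be the same. Without the Nkain2 clusters the Adamts3 ratio was 0.709 (0.592 to 0.848), no longer past 1.5 times, whereas that of Adamtsl2 was 0.492 and that of Mmp3 was 3.53. Adamtsl3 was highest in the Gfpt2 clusters of both libraries, at 470 and 803, and its fibroblast level was 295 in Sham and 423 in TAC, a ratio of 1.43 (1.34 to 1.53).

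**Figure D4:**
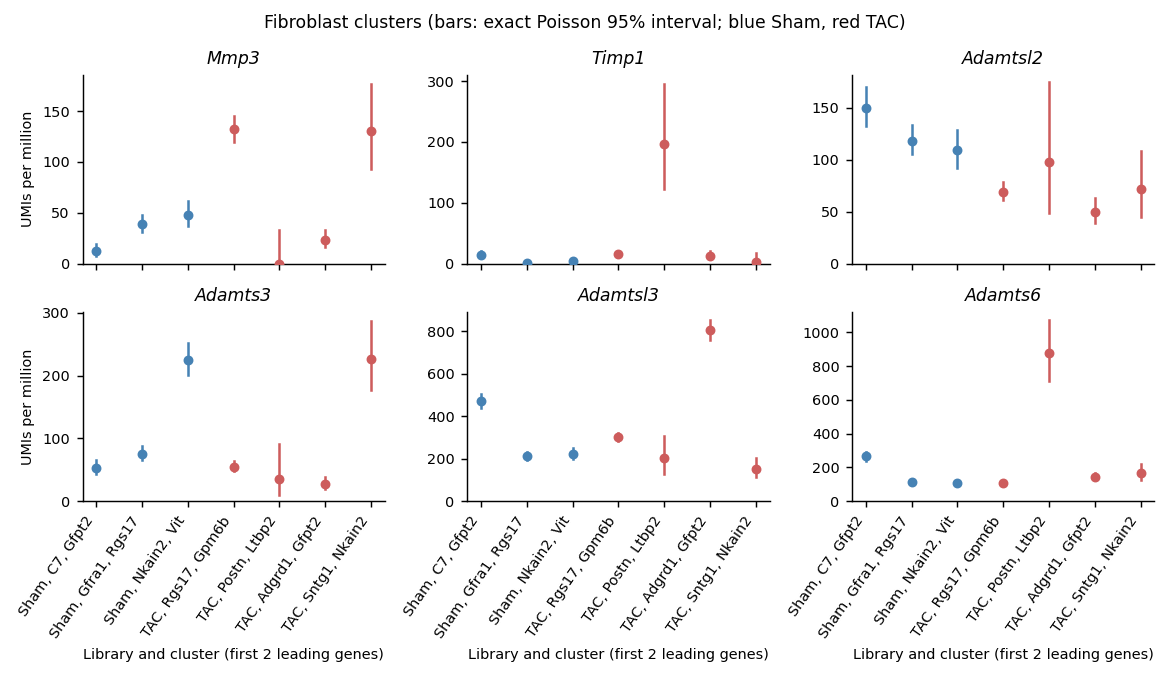
Levels (UMIs per 1000000 UMIs of the cluster, linear axes from 0) of 6 genes in the fibroblast clusters of the Sham (blue) and TAC (red) libraries, with exact Poisson 95% intervals. Mmp3 is high in the Rgs17 and Nkain2 clusters of TAC (132 and 130), Timp1 and Adamts6 in the 31 Postn cells (196 and 880), Adamts3 in the Nkain2 clusters of both libraries (225 and 227).

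In cardiomyocytes Adamtsl5 had the largest count behind a difference, 4689 UMIs in Sham and 2640 in TAC, and its ratio was 0.543 (0.517 to 0.569). Both Sham cardiomyocyte clusters, at 453 and 349, lay above both TAC clusters, at 219 and 180, and a cluster of 153 cells with cardiomyocyte genes that stayed unnamed occurred in Sham alone. The summed level of the cardiomyocyte markers was also lower in TAC, at 63002 against 80832. Of the 9 markers, 1 was past 1.5 times lower (Ttn at 0.639) against 6.74% of all genes, and 4 were above 1 against 52.9%. The median log2 ratio of the markers was -0.06. Adamts17 was at 17.4 in Sham and 32.7 in TAC, a ratio of 1.88 (1.59 to 2.22). Adamts19 had 28 and 57 UMIs and a ratio of 1.96 (1.23 to 3.20), which was 1.28 with each cell named from its markers alone, 1.38 with 3000 variable genes and 50 components together and 3.23 at a clustering resolution of 2. Adamts5 had a ratio of 0.632 (0.413 to 0.957) between cardiomyocyte values that were not read as expression by these cells.

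Timp3 was past 1.5 times in pericytes, the cells that wrap capillaries. There it was at 166 in Sham (148 to 186) and 83.2 in TAC (70.8 to 97.2), a ratio of 0.501 (0.411 to 0.608), and in smooth muscle cells at 424 and 225 from 54 and 22 UMIs, a ratio of 0.531 (0.308 to 0.887), with 14 of the Sham UMIs in 1 cell. Its ratio was 0.858 (0.784 to 0.939) in endothelial cells, 0.798 (0.721 to 0.883) in fibroblasts, 0.891 (0.719 to 1.10) in cardiomyocytes and 1.06 (0.851 to 1.31) in lymphatic endothelial cells. In macrophages 28 and 17 UMIs were too few for a ratio by the minimum set. The pericyte markers summed to 10298 in Sham pericytes and 11121 in TAC. Among all genes tested in pericytes 49.5% had a ratio above 1. The smooth muscle markers summed to 850 and 677 in those cells, with all 4 tested below a ratio of 1, such as Myh11 at 0.724 and Mylk at 0.790. Their part in the Timp3 value was not tested.

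Timp2 had a ratio of 1.24 (1.08 to 1.43) in macrophages, 0.961 (0.860 to 1.07) in fibroblasts, 0.876 (0.621 to 1.24) in endothelial cells and 1.48 (1.01 to 2.18) in cardiomyocytes, where 47 and 72 UMIs were found, and it had 16 and 15 UMIs in pericytes. The cardiomyocyte ratio ran from 0.951 to 1.66 over the alternatives and lay below 1 with each cell named from its markers alone. In lymphatic endothelial cells Timp2 had 29 and 68 UMIs, levels of 159 and 266 and a ratio of 1.68 (1.07 to 2.69). Timp4 had ratios of 0.974 (0.867 to 1.10) in endothelial cells and 1.47 (0.821 to 2.68) in cardiomyocytes, from 21 and 32 UMIs, and 8 and 10 UMIs in macrophages and 7 and 9 in pericytes. In cardiomyocytes Timp4 was at 0.790% and 1.19% of its endothelial level, where the endothelial markers ranged up to 1.03% and 1.28%. Timp1 outside fibroblasts had 5 UMIs in Sham and 23 in TAC endothelial cells, 9 and 11 in cardiomyocytes, 2 and 3 in macrophages and 3 and 3 in pericytes. The fibroblast markers summed to 350 in Sham endothelial cells and 485 in TAC, beside that Timp1 difference, and their part in it was not tested.

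Among the remaining calls, Mmp19 was at 10.4 in Sham macrophages and 24.9 in TAC, a ratio of 2.39 (1.47 to 4.03) that was 1.93 without the top cell of each library and 1.63 with doublets kept, and at 11.1 and 18.9 in endothelial cells, a ratio of 1.69 (1.06 to 2.77) that was 1.29 with doublets kept. In endothelial cells the fibroblast markers summed to 350 and 485 and the macrophage markers to 143 and 157. Of 6 tested macrophage markers, 3 were past 1.5 times higher, against 8.66% of all genes, and 1 past it lower, against 5.85%. The part of both lists in the Mmp19 value was not tested. Adamts3 in pericytes had 26 and 48 UMIs and a ratio of 1.76 (1.07 to 2.96), which was 1.19 with doublets kept. Adamtsl4, whose protein binds fibrillin microfibrils, had ratios of 0.646 (0.434 to 0.960) in endothelial cells, 0.654 (0.444 to 0.956) in macrophages, 0.636 (0.405 to 0.988) in pericytes and 0.718 (0.646 to 0.796) in cardiomyocytes, and 1.21 (1.02 to 1.45) in fibroblasts. Adamtsl5 had a ratio of 0.390 (0.256 to 0.585) in endothelial cells. There it was at 8.12% of its cardiomyocyte level in Sham and 5.83% in TAC, below the cardiomyocyte marker medians of 12.4% and 10.4%. These endothelial values were not read as expression by endothelial cells. With doublets kept, the Adamtsl4 ratio was 0.792 in endothelial cells and 0.853 in macrophages, and the Adamtsl5 ratio in endothelial cells was 0.695. The summed cardiomyocyte markers were lower in TAC in each of these types, at 5019 and 3514 in endothelial cells, 3860 and 2383 in macrophages and 3438 and 2504 in pericytes. Not all went that way. Of the 9 markers, 3 had a ratio above 1 in endothelial cells (54.0% of all genes), 1 in macrophages (50.2%) and 4 in pericytes (49.5%). Their part in the Adamtsl4 and Adamtsl5 values was not tested.

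Within the endothelium the genes also divided by cluster. Adamts9 was at 909 in the main Sham cluster, led by Ccdc85a and Mcf2l, and 1101 in the main TAC cluster, led by Ablim3 and Ccdc85a, and at 48.2 and 47.0 in the clusters led by Tmem108 and Nrg1. Timp4 followed the same division, at 255 and 282 in the main clusters against 21.1 in the Tmem108 cluster of Sham and no UMI in that of TAC, and so did Mmp15, at 72.0 and 84.2 against 0 and 7.58. The clusters led by Kcnc2 in Sham and by Lhx6 in TAC lay between, with Adamts9 at 132 and 498. Adamts1 was higher in the Tmem108 clusters, at 142 and 152, than in the main clusters, at 46.2 and 61.5. Timp3 was highest in the small clusters with Gja5 and Sema3g among their top genes, at 917 in 35 Sham cells and 762 in 118 TAC cells, and lowest in the Tmem108 clusters, at 196 and 179.

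**Figure D5:**
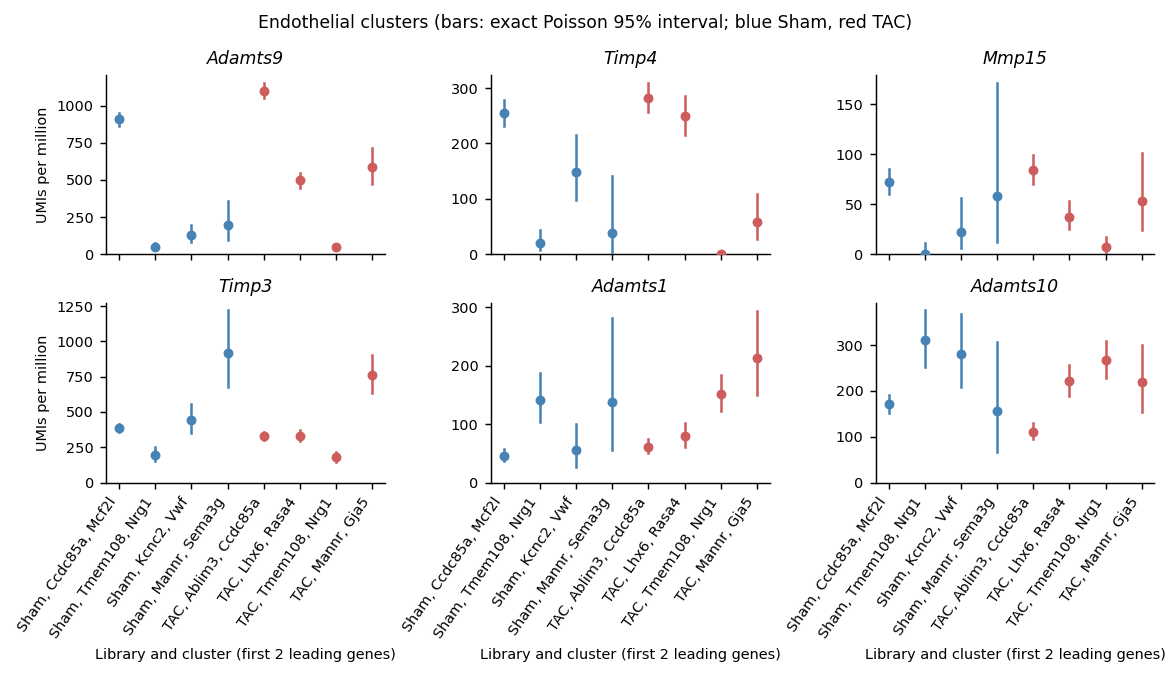
Levels (UMIs per 1000000 UMIs of the cluster, linear axes from 0) of 6 genes in the endothelial clusters of the Sham (blue) and TAC (red) libraries, with exact Poisson 95% intervals. Adamts9, Timp4 and Mmp15 are low in the Tmem108 clusters (Adamts9 48.2 and 47.0), where Adamts1 (142 and 152) is higher than in the main clusters.

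Other genes of the system were counted in fibroblasts from lists of their roles, beside 10.5% higher and 4.33% lower among all genes tested there. Of 10 tested activators and receptors, 1 was higher, Plaur, the urokinase receptor, at a ratio of 1.53 (0.925 to 2.57). The list of other inhibitors also held genes that are not protease inhibitors, such as Pcolce and Pcolce2. Of its 9 tested genes none passed in either direction, with Thbs1 at 1.42, Serpine2 at 1.37 and the membrane-bound inhibitor Reck at 0.751 (0.661 to 0.854). Of 12 substrates and cofactors, 2 were higher, the small proteoglycans Lum at 1.67 (1.43 to 1.95) and Bgn at 1.58 (1.45 to 1.72), and none was lower, while Vcan, the versican gene, was at 1.02 (0.949 to 1.09). Of 9 ADAM proteases, the membrane-anchored relatives of the ADAMTS enzymes, none passed, and Adam19 had the largest ratio at 1.47 (1.35 to 1.59).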

How the data were processed

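Single-cell RNA was measured in 1 Sham and 1 TAC library. The authors deposited gene by barcode matrices of raw UMI counts, made from 10x Genomics reads. The submitters' processing notes name Cell Ranger 7.1.0, whereas the study's methods name another version and kit. The genome build, the use of intron and antisense reads and the barcode filter were not given in the sources used here, and no cell annotation was used.

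Barcodes with at least 200 genes were kept and doublets called by Scrublet were left out (4.62% of Sham and 4.82% of TAC barcodes). Each library was clustered alone with scanpy 1.11.5 (Python 3.11.15; 2000 variable genes, 30 components, 15 neighbours, Leiden resolution 1), without the genes described here and without mitochondrial genes. Clusters were named from fixed marker lists, so names are rebuilt. UMIs were summed per cell type and divided by the UMIs of the type. Intervals are 95% exact Poisson (levels), Clopper-Pearson (shares) and conditional binomial (ratios), made with SciPy 1.17.1, and cover counting error only. For a count of 0, the upper limit is 3 counts of the total. Scripts were tested on simulated data. A cell's UMIs were thinned to 1000 for shares of cells. Shallower cells were left out, namely 211 Sham and 93 TAC fibroblasts, 36 and 9 cardiomyocytes, and 814 and 728 endothelial cells. Positions came from GENCODE M21, which held 52081 of the 55357 gene identifiers (94.1%).

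By the rule for named genes, levels were given for genes with at least 200 UMIs, ratios for genes past 1.5 times with an interval clear of 1 and for every TIMP, and up to 3 genes of each other list by size of ratio. Reck, Vcan, Gsn, Dpt, Tcf21, Myh11, Mylk, the levels of Mmp13 and Timp1 and the ratios of other genes were added after their values were seen. Members and lists were chosen with earlier results of these data known. Alternatives covered the cell filters, doublets, clustering, naming, the UMI minimum, the fold and the depth of thinning.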

Additional observations from a re-analysis of the deposited data

How the results depend on the processing

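With 1 library per condition the limits are the absence of replicates, the pooled hearts and the few UMIs of several genes. No paired analysis was possible because Sham and TAC were represented by a single pooled library apiece. Of the recomputed TAC to Sham ratios, 278 stayed within the counting interval of the value given, 7 moved beyond it and 1 reversed, Timp2 in cardiomyocytes, at 0.951 with cells named singly by their markers. The cause was not tested. Beyond their intervals moved 32 levels (508 did not), 107 shares of a gene's UMIs (373 did not, and with cells named singly 59 moved and 1 did not) and 174 shares of cells (6 did not), which were recomputed at other depths. Of the median log2 ratios of the family, 9 moved by 0.1 or more and 51 did not. Counts of genes past the fold are given as higher and lower. In cardiomyocytes (2 and 2) they were 4 and 1 with at least 500 genes, at most 25% mitochondrial UMIs, doublets kept, resolution 0.5 or both libraries clustered together, 5 and 1 with 3000 variable genes and 50 components, 4 higher at resolution 2, and 6 lower with cells named singly. In endothelial cells (1 and 2) they were 2 and 1 with at least 500 genes, 2 higher with at most 25% mitochondrial UMIs or resolution 2, 0 and 4 with doublets kept, and 3 higher with cells named singly. With doublets kept, 7 genes were higher in fibroblasts, and 3 were lower in macrophages and 4 in pericytes. With cells named singly, 2 were lower in macrophages. A minimum of 20 UMIs gave 4 and 4 in cardiomyocytes, 3 and 5 in endothelial cells, 4 lower in macrophages and 2 higher in pericytes. A minimum of 200 UMIs gave 2 higher in fibroblasts, 1 and 1 in cardiomyocytes, 0 and 0 in endothelial cells and macrophages, and 0 and 1 in pericytes, since fewer genes were tested. A fold of 2 gave 2 and 0 in fibroblasts, 0 and 0 in cardiomyocytes and pericytes, 0 and 1 in endothelial cells and 0 lower in macrophages. The share of all genes past the fold is not given for these settings, so these counts were not read as particular to the family. Leaving out the top cell of each library, or the fibroblast clusters led by Nkain2 or by Postn, was chosen after seeing the data.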
